A study of Mus musculus with 8 samples.

Results

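The 10 genes described here code for the enzymes that build purine nucleotides from small precursors and finish them as AMP and GMP: Gart, Ppat, Pfas, Paics, Adsl, Atic, Impdh1, Impdh2, Gmps and Adss. They were chosen by name and matched by Ensembl ID, and all 10 are present among the 19493 endogenous genes of the count table. The RNAseq libraries, 4 wild-type (WT) and 4 Dp1Tyb, were made from mouse embryonic fibroblasts (MEFs), primary cells of connective tissue that grow on plastic. Dp1Tyb cells carry Dp(16Lipi-Zbtb21)1TybEmcf, a duplication on chromosome 16 that models trisomy of human chromosome 21, so each gene inside it is present in 3 copies against 2 in WT cells. Of the 10 genes, only Gart lies in the duplication. Both groups had the strain background C57BL/6J.129P2, came from embryos at E14.5, were dissociated and passaged with trypsin and received no other treatment. All are primary cultures from embryos without head and viscera, mixed in origin; the Dp1Tyb cells carry the duplication in every cell type, and the sex of the embryos was not used here. Before extraction, the cells of every culture, equal in number, had received the same amount of ERCC spike-ins, synthetic RNAs that serve as an external standard.

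Purine rings are assembled on phosphoribosyl pyrophosphate (PRPP) in a chain of reactions that ends at inosine monophosphate (IMP). Vertebrate Gart is a single protein with 3 enzyme activities of that chain, and Paics and Atic carry out a pair of steps each. IMP is the branch point: Impdh1 or Impdh2 and then Gmps lead to GMP, and Adss followed by Adsl leads to AMP. In dividing cells the pathway supplies nucleotides for DNA and RNA, and human GART lies on chromosome 21.

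Gart spans chr16:91621186-91646952 on the minus strand (GRCm38), inside the duplicated interval chr16:75540514-97962622. Its start faces that of Son, which lies on the plus strand, with 553 bases between the annotated genes. Ppat and Paics are a head-to-head pair on chromosome 5 (Ppat chr5:76913249-76951578, minus; Paics chr5:76951307-76967509, plus), and their annotated exons share 272 bases on opposite strands. The remaining genes lie apart, Pfas on chromosome 11, Adsl on 15, Atic and Adss on 1, Impdh1 on 6, Impdh2 on 9 and Gmps on 3.

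Promoter windows from 250 bases before to 50 bases after the RefSeq start (GRCm38.p6) were found for 9 of the 10 genes, with more than one window for Impdh1. Pfas had no entry. The windows of the duplicated gene and of the head-to-head pair are shown, the last because their starts are 276 bases apart and the windows do not overlap. They are chr16:91646923-91647222 (minus) for Gart, chr5:76951529-76951828 (minus) for Ppat and chr5:76951052-76951351 (plus) for Paics, each written in the direction of transcription. Capitals mark matches on either strand to CACGTG (the E-box bound by Myc and other factors) or CCGGAAGT (as bound by ETS factors).
Gart: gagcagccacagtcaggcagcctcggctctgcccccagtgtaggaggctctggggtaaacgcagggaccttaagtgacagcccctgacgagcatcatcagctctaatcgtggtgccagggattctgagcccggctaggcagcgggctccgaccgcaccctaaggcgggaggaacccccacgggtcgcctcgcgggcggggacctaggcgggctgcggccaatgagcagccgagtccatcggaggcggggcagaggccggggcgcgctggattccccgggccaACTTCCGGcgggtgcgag
Ppat: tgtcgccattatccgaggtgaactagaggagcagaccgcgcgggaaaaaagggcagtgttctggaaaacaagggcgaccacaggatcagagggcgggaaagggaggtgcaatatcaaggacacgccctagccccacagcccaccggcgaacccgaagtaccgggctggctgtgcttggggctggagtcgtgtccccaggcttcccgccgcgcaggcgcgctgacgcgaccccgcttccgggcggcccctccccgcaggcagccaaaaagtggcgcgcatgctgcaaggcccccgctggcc
Paics: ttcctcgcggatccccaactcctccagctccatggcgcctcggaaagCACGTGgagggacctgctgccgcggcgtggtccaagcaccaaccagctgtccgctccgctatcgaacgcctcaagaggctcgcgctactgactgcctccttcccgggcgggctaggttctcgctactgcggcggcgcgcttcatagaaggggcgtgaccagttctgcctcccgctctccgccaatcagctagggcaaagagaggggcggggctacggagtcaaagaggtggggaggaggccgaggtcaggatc

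The Gart window held 1 match to CCGGAAGT, which began 32 bases after the start, and none to CACGTG. The Paics window held 1 match to CACGTG, 203 bases before its start, and the Ppat window held neither string. CACGTG was also found for Atic (7 bases before the start) and Impdh2 (110 bases before), that is, for 3 of 9 genes with a window, beside 7.15% of all 32851 windows of this length. CCGGAAGT matched in 1 of 9, beside 3.89% of all windows. The shorter strings GGGCGG (a GC box) and CCAAT matched in 9 and 4 of the 9, beside 35.7% and 37.4% of all windows. These are matches of letters, not sites shown to be bound.

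Total counts ran from 17698900 to 26471758 per library, and spike-ins took 0.882% to 1.65% of them. Each gene is given under 2 scalings: spike-in scaling, which measures RNA per spike-in and so per cell put into the extraction, and relative scaling (TMM, trimmed mean of M-values), which measures a gene against the other genes. Normalised read counts are raw counts divided by a factor per library. Endogenous RNA per spike-in was 1.07-fold in Dp1Tyb over WT, with an exact permutation p of 0.771 (two-sided), and the libraries ranged from 0.688 to 1.31. The spread between libraries was larger under spike-in scaling: the biological coefficient of variation that edgeR estimated over all genes was 0.351, against 0.232 under relative scaling. In bulk libraries such as these, fewer cells of a type and less RNA per cell cannot be told apart. Summed over 10 fibroblast markers (Col1a1, Vim and others), RPKM (reads scaled for exon length and library size) was 2822 to 3986 in WT and 3217 to 3938 in Dp1Tyb. Macrophage markers were present as well, with a summed level over 6 genes of 160 to 238 RPKM in WT and 94.0 to 200.4 in Dp1Tyb. All 6 had a log2 fold change below 0 under both scalings, and in edgeR 0 of 6 passed the adjusted test, while 5 under relative scaling and 1 under spike-in scaling were lower at an unadjusted p under 0.05, beside 2.53% and 0.316% of all genes. The part of this difference in the results on the enzymes was not tested. Summed skeletal muscle markers ran from 3.20 to 15.4 RPKM in WT and from 1.93 to 20.7 in Dp1Tyb, and with spike-in scaling 3 of 4 tested genes were higher at an unadjusted p under 0.05, against 0 of 4 with relative scaling, beside 0.85% and 1.74% of all genes. Summed neural and glial markers ran from 17.7 to 25.97 RPKM in WT and from 12.6 to 26.9 in Dp1Tyb, with 0 of 5 genes at an unadjusted p under 0.05 under either scaling. Summed endothelial markers reached at most 9.39 RPKM and summed epithelial markers 11.9 RPKM in any library, and erythroid markers were not analysed here.

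Gart was the only member with the groups apart, and this held under relative scaling only. The trifunctional enzyme had raw counts of 1017, 1602, 1212 and 1392 in replicates 1 to 4 of WT, and of 2263, 1959, 2058 and 1945 in those of Dp1Tyb. Under relative scaling the normalised read counts were 949.5, 1420, 1200 and 1412 in WT and 1828, 2361, 2116 and 2338 in Dp1Tyb. The lowest Dp1Tyb library was thus above the highest WT library, as was the case for 1.64% of the 16470 genes tested. Under spike-in scaling the values were 1126, 1253, 855.5 and 1651 in WT and 2202, 1624, 2227 and 3072 in Dp1Tyb. Here the groups overlapped, since Dp1Tyb replicate 2 lay just below WT replicate 4, while the other 3 Dp1Tyb libraries lay above every WT library. Dp1Tyb replicate 2 was also the library with the least endogenous RNA per spike-in, at 0.688.

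**Figure D1:**
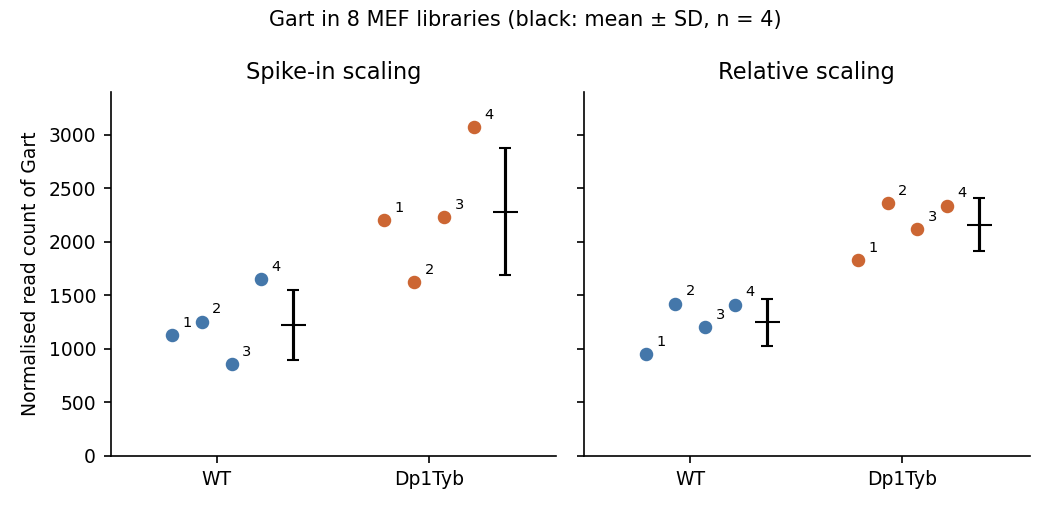
Normalised read count of Gart in each of the 8 libraries, by genotype, under spike-in and relative scaling, with the mean and SD of each group. Under relative scaling the lowest Dp1Tyb library (1828) is above the highest WT library (1420), and under spike-in scaling Dp1Tyb replicate 2 (1624) is below WT replicate 4 (1651).

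Under relative scaling WT averaged 1245 ± 222 normalised read counts of Gart and Dp1Tyb 2161 ± 247.8 (SD, n = 4 per genotype), a 1.74-fold difference with a log2 fold change of 0.80 ± 0.15 (SE) in edgeR's quasi-likelihood test. The unadjusted p was 0.000293 and the Benjamini-Hochberg adjusted p over all 16470 genes was 0.228, so the gene was not called at 0.05 in this fit, which called 0.0182% of all genes and 0.893% of the 112 genes of the duplication. DESeq2 with its own size factors gave the same log2 fold change of 0.80 with an adjusted p of 0.00231 and did call Gart, together with 54 genes in all (0.328% of those it tested, and 33% of those in the duplication). Over the alternatives tried under relative scaling the log2 fold change stayed between 0.69 and 0.87, while the adjusted p ran from 0.00231 to 0.989. Taken as a single value per library, the log2 difference was 0.81, with an exact permutation p of 0.0286 (two-sided), the smallest that 4 against 4 libraries allow.

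Under spike-in scaling the means were 1221 ± 330.8 and 2281 ± 596.5 (SD, n = 4 each), a 1.87-fold difference with a log2 fold change of 0.90 ± 0.32 (SE). In edgeR, which called 0.0121% of all genes here, the unadjusted p was 0.00464 and the adjusted p 1.00, and the exact permutation test per library gave p = 0.0571. The adjusted p ranged from 0.138 to 1.00 over the alternatives, and none called Gart, DESeq2 included, which called 0.0122% of all genes under this scaling. Gart was thus called in some fits and not in others, whereas its direction was the same in all of them.

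With 3 copies over 2, the ratio of copies is 1.5, or 0.585 on the log2 scale. The 95% interval of the Gart log2 fold change was 0.47 to 1.12 under relative scaling and 0.28 to 1.53 under spike-in scaling, and both hold 0.585. Tested against a ratio of 1.5 in edgeR, the unadjusted p was 0.179 under relative and 0.317 under spike-in scaling. These fits did not separate the Gart level from the ratio of its copies. Under relative scaling an edgeR fit with a replicate block gave 0.81 ± 0.08 (SE), with a smaller SE than without the block. Unlike the 2 intervals above, a 95% interval of the blocked SE lies above 0.585. The replicate numbers were not shown to pair the libraries, so the blocked value is given as a description only. Among the 112 tested genes of the duplication, whose median log2 fold change was 0.54 under relative and 0.64 under spike-in scaling, Gart ranked 15 and 14 from the top. Over all genes tested the medians were 0.01 and 0.11, so that spike-in scaling moved the middle of all genes up by about the latter value.

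The genes beside Gart lie in the duplication too, and 6 were followed: Tmem50b and Dnajc28 on one side, and Son, Donson, Cryzl1 and Itsn1 on the other. All 6 had a log2 fold change above 0 under both scalings, and none passed the adjusted test in edgeR. At an unadjusted p under 0.05, 5 were higher under relative scaling, beside 53.6% of the genes of the duplication and 1.74% of all genes. Under spike-in scaling 3 were, beside 43.8% and 0.85%. The groups were apart, with Dp1Tyb higher, for 3 of the 6 under each scaling. Under relative scaling this held for 42% of the duplication and 1.64% of all genes. Under spike-in scaling the shares were 14.3% and 0.285%. Son, an RNA splicing cofactor that starts next to Gart, had a mean of 12480 ± 1062 relative normalised counts over the WT libraries and of 16960 ± 337.3 over the Dp1Tyb libraries (SD, n = 4 per genotype), and its log2 fold change was 0.44 ± 0.10 (SE), or 0.55 ± 0.32 under spike-in scaling. Its groups were apart under relative scaling. Cryzl1, which codes for a quinone oxidoreductase-like protein, had the highest value of the 6, at 0.91 ± 0.15 under relative and 0.98 ± 0.33 under spike-in scaling (log2 fold change, SE), with groups apart under both. Itsn1, a scaffold protein of endocytosis, stood at 0.60 ± 0.11 under relative and 0.72 ± 0.32 under spike-in scaling. The log2 fold changes of Donson, a DNA replication factor, were 0.56 under relative and 0.64 under spike-in scaling, and those of Tmem50b, a membrane protein, 0.71 and 0.79. Dnajc28 had few reads, 18.6 ± 10.3 normalised read counts in WT (SD, n = 4) under relative scaling, and its log2 fold change of 0.77 had an SE of 0.39. The log2 fold change of Gart was above those of 5 of its 6 neighbours under both scalings, and these differences were not tested.

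None of the other 9 enzymes was called. In edgeR, 0 of 9 passed the adjusted test under either scaling, 0 of 9 had an unadjusted p under 0.05 (beside 4.27% of all genes under relative and 1.17% under spike-in scaling), and 0 of 9 were called by DESeq2. The adjusted tests called 0.0182% (edgeR) and 0.328% (DESeq2) of all genes under relative scaling and 0.0121% and 0.0122% under spike-in scaling, so a count of 0 among 9 genes does not set the enzymes apart from other genes. The normalised counts of WT and Dp1Tyb overlapped for all 9 under both scalings, and did not overlap for 3.16% of all genes under relative and 0.425% under spike-in scaling. Their log2 fold changes were all above 0, as were those of 51.2% of all genes under relative and 70.4% under spike-in scaling, although those of Ppat, Pfas and Gmps were below 0 with upper-quartile factors. Leaving out 1 library also put Ppat, Pfas, Paics, Impdh2, Gmps and Adss below 0 in at least 1 fit under relative scaling, and Ppat, Pfas, Paics and Gmps under spike-in scaling, so no direction is read for these genes. They ran from 0.01 to 0.16 with a median of 0.08 under relative scaling, beside 0.01 for all genes, and from 0.08 to 0.28 with a median of 0.18 under spike-in scaling, beside 0.11. For all 9 the 95% interval under relative scaling, with every library included, held 0 and ended below 0.585, with upper bounds from 0.37 to 0.55. With 1 library left out, the limit of 0.585 did not hold for every gene. Without WT replicate 2, for example, Impdh1 stood at 0.32 ± 0.17 and Impdh2 at 0.23 ± 0.17 (SE), and 95% intervals of that SE reach past 0.585. Under spike-in scaling every interval held both 0 and 0.585, so at that spread a difference of the size of the copy ratio was not excluded for any of them.

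**Figure D2:**
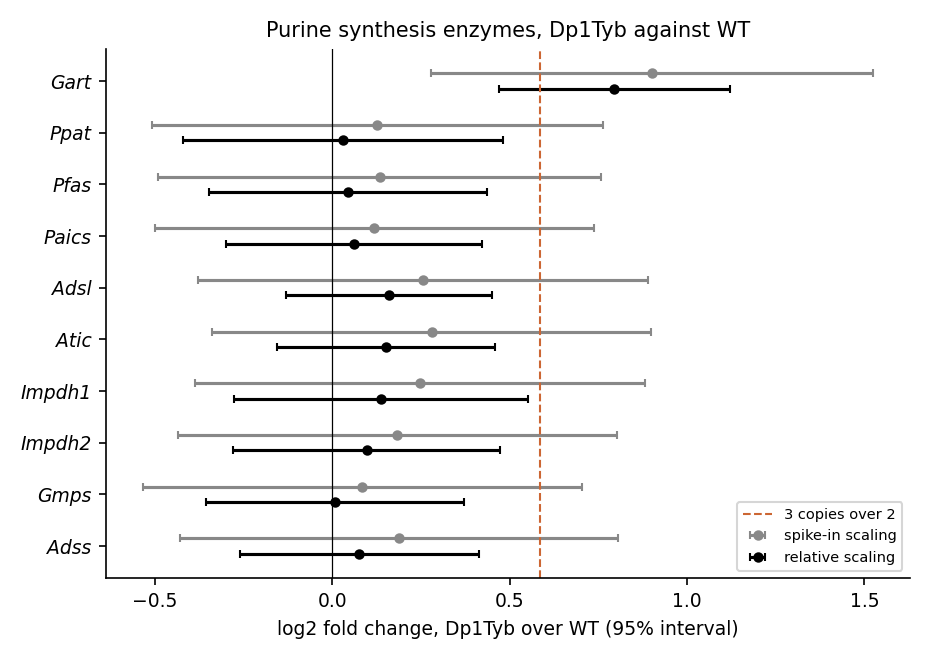
Log2 fold change (Dp1Tyb over WT) of each of the 10 genes with its 95% interval from edgeR, under both scalings, with lines at 0 and at the copy ratio of 3 to 2 (0.585). Gart has the highest value under each scaling (0.80 relative, 0.90 spike-in), and the intervals of the other 9 genes all include 0.

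In the order of the pathway, Ppat codes for the amidotransferase that commits PRPP to purine synthesis. WT replicates 1 to 4 had 425.7, 689, 709 and 852 relative normalised counts, and the Dp1Tyb replicates 566, 810.0, 634.5 and 721. The Dp1Tyb values all fell inside the range of WT, and the log2 fold change was 0.03 ± 0.20 (SE). WT replicate 1 was the lowest of the 8 libraries, and without it the log2 fold change was -0.13.

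Pfas, the FGAM synthase that acts between steps of Gart, had 1141, 1626, 1147 and 1203 relative normalised counts in WT and 932, 1537, 1421 and 1388 in Dp1Tyb. Its lowest library was Dp1Tyb replicate 1 and its highest WT replicate 2, and the log2 fold change was 0.04 ± 0.18 (SE). Paics, a bifunctional carboxylase and SAICAR synthase, had 2595, 3515, 2710 and 2955 in WT and 2481, 4031, 3051 and 2730 in Dp1Tyb. Both extremes lay in Dp1Tyb, in replicates 1 and 2, with a log2 fold change of 0.06 ± 0.16 (SE).

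Adsl, the lyase that acts once on the way to IMP and again on the way to AMP, had 579, 813, 697 and 722 relative normalised counts in WT and 705, 900.4, 784 and 750.1 in Dp1Tyb. The values overlapped, and the log2 fold change was 0.16 ± 0.13 (SE). Atic, which closes the purine ring to give IMP, had 1956, 2871, 2805 and 3079 in WT and 2859, 2972, 2896 and 3168 in Dp1Tyb. The Dp1Tyb libraries lay close together here, and WT replicate 1 alone was well below the rest. Its log2 fold change was 0.15 ± 0.14 (SE) under relative scaling, and 0.032 without that library, and it was 0.28 ± 0.32 under spike-in scaling.

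On the branch to GMP, the IMP dehydrogenase Impdh1 had 573, 854, 512 and 633 relative normalised counts in WT and 536.5, 688, 823 and 784 in Dp1Tyb. Impdh2, the dehydrogenase with the higher level in these cells, had 1416, 2164, 1643 and 1767 in WT and 1407, 2288, 1847 and 1934 in Dp1Tyb. The log2 fold changes were 0.14 ± 0.19 and 0.10 ± 0.17 (SE), and in both genes the groups covered much the same range. Reads of Impdh2 may be affected by its processed pseudogene Impdh2-ps, which had 151 counts in all 8 libraries together, and by 48 exon bases shared with Ndufaf3 on the opposite strand. Gmps, the GMP synthetase, had 1924, 2971, 2280 and 2466 in WT and 1992, 3005, 2524 and 2180 in Dp1Tyb. The ranges were nearly the same, with a log2 fold change of 0.01 ± 0.16 (SE).

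On the branch to AMP, the adenylosuccinate synthase Adss had 2111, 3090, 3206 and 3397 relative normalised counts in WT and 2846, 3508, 2895 and 3199 in Dp1Tyb. Only WT replicate 1 was below all Dp1Tyb libraries and only Dp1Tyb replicate 2 above all WT libraries. Its log2 fold change stood at 0.08 ± 0.15 (SE).

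**Figure D3:**
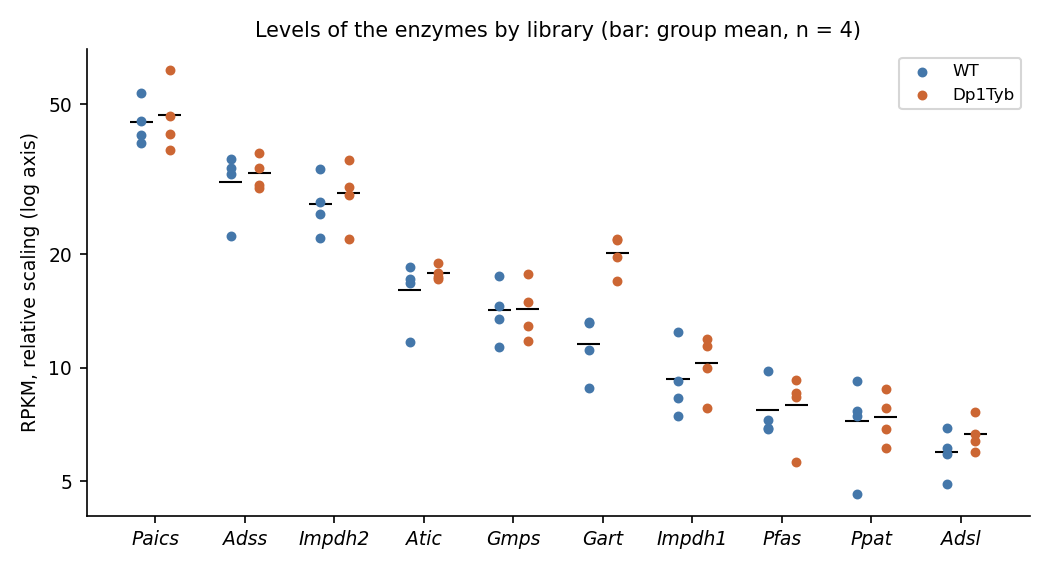
Level of each gene in RPKM (relative scaling, union of annotated exons as length), by library and genotype, ordered by the WT mean. Paics is highest (44.9 in WT) and Adsl lowest (5.97 in WT), and only for Gart are the WT (8.83 to 13.2) and Dp1Tyb (17.0 to 22.0) libraries apart.

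Set per length, the 10 genes differed widely in level. In WT, mean RPKM ± SD (n = 4) was 44.9 ± 6.24 for Paics, 31.2 ± 6.07 for Adss, 27.2 ± 4.87 for Impdh2, 16.1 ± 2.97 for Atic and 14.2 ± 2.58 for Gmps. Gart followed with 11.6 ± 2.07 at rank 6, and below it came Impdh1 with 9.34 ± 2.17, Pfas with 7.72 ± 1.40, Ppat with 7.24 ± 1.92 and Adsl with 5.97 ± 0.82. Between neighbours in this order, only Paics and Adss, and Impdh2 and Atic, had WT ranges that did not overlap. In Dp1Tyb, Gart averaged 20.1 ± 2.31 RPKM and ranked 4, where its range overlapped that of Atic (17.1 to 19.0), which came next. These places depend on the length used. With the length of the longest coding transcript, an alternative chosen after the data had been seen, Gart stood at 16.9 RPKM in WT, and Atic at 45.1 ranked 3. Gart also has a short transcript that codes for its first activity alone, and gene counts pool it with the long one.

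Within a library the ratio of Gart to another enzyme does not depend on the scaling. The log2 ratio, per length, was higher in all 4 Dp1Tyb than in all 4 WT libraries for each of the other 9 genes, as it was for 54.3% of all 16469 other genes tested. The difference of the mean log2 ratio was smallest against Atic, at 0.64, and largest against Gmps, at 0.80. Against Gmps the ratio was -0.36, -0.41, -0.27 and -0.15 in WT and 0.53, 0.31, 0.40 and 0.76 in Dp1Tyb, so that with these lengths Gart was below Gmps in every WT library and above it in every Dp1Tyb library. With the length of the longest coding transcript, an alternative chosen after the data had been seen, the WT values were 0.19, 0.14, 0.28 and 0.40, all above 0, so the crossing depended on the length while the difference between the groups did not. Against Atic it was -0.41, -0.38, -0.59 and -0.49 in WT and -0.01, 0.30, 0.18 and 0.20 in Dp1Tyb. Of the summed RPKM of the 10 genes, Gart made up 6.29% to 7.05% in WT and 9.67% to 11.3% in Dp1Tyb.

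**Figure D4:**
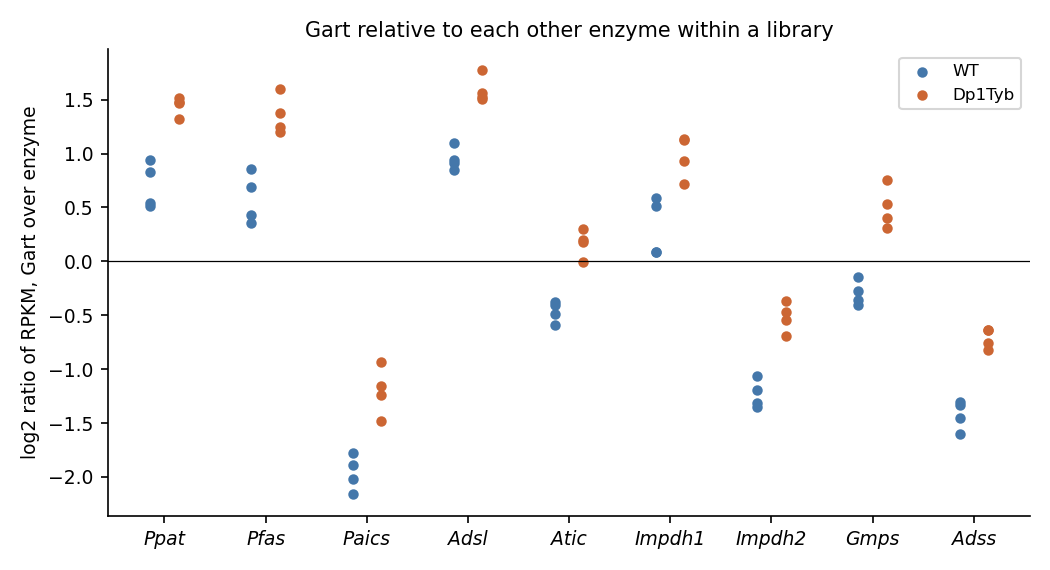
Log2 ratio of Gart to each of the other 9 genes within a library, from RPKM, for 4 WT and 4 Dp1Tyb libraries. For every gene the Dp1Tyb points lie above the WT points, by 0.64 (Atic) to 0.80 (Gmps) between the means.

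Under relative scaling, most of the enzymes had their lowest and highest values in the same libraries within each genotype. How often other genes did so was not tested. Of the 9 genes outside the duplication, 8 had their lowest relative WT value in replicate 1, and all 9 had their lowest relative Dp1Tyb value in replicate 1. The highest relative value fell in replicate 2 for 6 of 9 in WT and for 7 of 9 in Dp1Tyb. Gart had its lowest and highest relative values in the same replicates of each genotype. Under spike-in scaling the order differed. Every enzyme, Gart included, was then lowest in Dp1Tyb replicate 2 and highest in Dp1Tyb replicate 4 (1624 and 3072 for Gart). In WT, Gart was then lowest in replicate 3 (855.5) and highest in replicate 4 (1651). In WT replicates 1 to 4, the RPKM of the 9 genes summed to 132, 191, 159.0 and 173, and in the Dp1Tyb replicates to 144, 205, 172 and 171. Genes of proliferating cells (12 genes, among them Mki67 and the Mcm helicase subunits) had sums of 175, 387, 208 and 203 RPKM in the same WT libraries and 97.9, 373, 291.5 and 209 in Dp1Tyb. Under relative scaling, replicate 1 was thus lowest and replicate 2 highest in both sums and both genotypes. The part of proliferation in the enzyme levels was not tested.

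**Figure D5:**
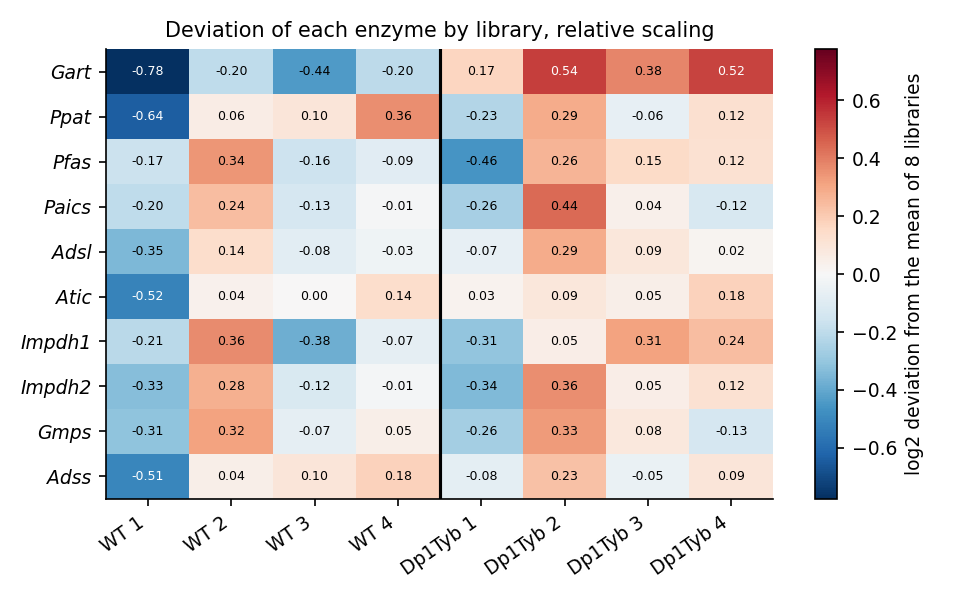
Deviation of each gene from its mean over the 8 libraries (log2 of the relative normalised count), one column per library and one row per gene. Replicate 1 of each genotype is low and replicate 2 of each is high for most of the 9 genes outside the duplication, while Gart is below its mean in all 4 WT libraries and above it in all 4 Dp1Tyb libraries.

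The neighbouring parts of nucleotide metabolism were followed through 7 lists: PRPP supply, purine salvage, interconversion, breakdown, folate one-carbon supply, pyrimidine synthesis and regulators. Of 63 genes, 61 could be tested, and 0 passed the adjusted test in edgeR under either scaling. At an unadjusted p under 0.05, 1 was higher under each scaling, beside 1.74% of all genes under relative and 0.85% under spike-in scaling. By the same measure 2 were lower under relative and 0 under spike-in scaling, beside 2.53% and 0.316% of all genes. These counts are close to those shares and are not a result about the lists. Their median log2 fold change was 0.10 under relative scaling, beside 0.01 for all genes, and 0.20 under spike-in scaling, beside 0.11. The higher gene was Ak4, a mitochondrial adenylate kinase, with 428 ± 68.2 relative normalised counts over the WT libraries and 865 ± 597 over the Dp1Tyb libraries (SD, n = 4 per genotype). Its raw counts were 552, 498, 404 and 350 in WT and 2180, 466, 553 and 474 in Dp1Tyb, so that Dp1Tyb replicate 1 stood far above all others. The groups overlapped in raw counts and under spike-in scaling, while under relative scaling all 4 Dp1Tyb libraries were above WT, beside 1.64% of all genes. The log2 fold change of Ak4 was 1.02 ± 0.37 (SE) under relative scaling, with an adjusted p of 1.00 in edgeR. The lower genes, named after their values were seen, were the AMP deaminases Ampd3, at -0.49 ± 0.20, and Ampd1, at -1.01 ± 0.43 (log2 fold change, SE), the latter with only 21.9 ± 7.50 relative normalised counts in WT (SD, n = 4).

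In the other lists the gene with the smallest p under relative scaling was taken as an example, and for each of them the groups overlapped. For Prpsap1, a regulatory partner of PRPP synthetase, the log2 fold change was 0.18 ± 0.14 (SE) under this scaling. All 4 genes of PRPP supply had a log2 fold change above 0, beside 51.2% of all genes under relative scaling. Hprt, the salvage enzyme for hypoxanthine and guanine, stood at 0.17 ± 0.11, and all 5 salvage genes were above 0. Xdh, which makes uric acid, stood at -0.45 ± 0.23, and 3 of 6 tested breakdown genes were above 0. Mthfs, an enzyme of folate metabolism, stood at -0.43 ± 0.23, while 14 of the 19 genes of folate one-carbon supply, which provides the formyl groups used by Gart and Atic, were above 0. Ctps, the CTP synthase, stood at 0.15 ± 0.16 and Myc, a transcription factor known to act on genes of nucleotide synthesis, at 0.33 ± 0.18. Among the genes of proliferating cells the example was Mki67, at -0.14 ± 0.53. Under relative scaling 5 of 5 genes of pyrimidine synthesis, 4 of 6 regulators, 12 of 16 interconversion genes and 8 of 12 proliferation genes were above 0. These tallies were not tested.

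Across the 8 libraries, the genes whose pattern was most like that of Gart were found by the root mean square difference of their centred relative log2 values, over the 11000 genes whose counts averaged 100 or more. Btg3, an antiproliferative protein of the duplication, came first at 0.126, Wnt9a, a secreted Wnt ligand on chromosome 11, next at 0.127, and Ifngr2, an interferon gamma receptor subunit in the duplication, followed at 0.129. The median over all genes compared was 0.476. Of the nearest 10 genes, 8 lay in the duplication, which holds 112 of all 16470 genes tested. This likeness includes the difference between the groups and is given as a description.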

How the data were processed

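Poly(A) RNA of 8 MEF cultures was sequenced as paired ends of a stranded library, with ERCC spike-ins. Per the labels and the study's methods, the authors trimmed reads with Trim Galore, aligned them with TopHat2 2.0.12 to GRCm38 and the spike-ins, discarded reads with several alignments and counted with htseq-count. The deposited values used here are whole raw counts per gene, with no normalisation. The annotation release and strand option are not given in the sources used here, and without strand, reads shared by overlapping genes (Ppat with Paics, Gart with the antisense Gm15964) cannot be assigned. The deposited normalised signal and the authors' DESeq2 1.6.3 table (log2 fold changes, their errors, p-values) were not used.

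Groups and replicate numbers came from the labels. Nothing in the labels states the number of litters or culture dates, so p-values measure the spread between these libraries. Spike-in scaling used median-of-ratios factors over 63 spike-ins, and relative scaling TMM over endogenous genes. After filterByExpr, 16470 genes were tested in R 4.3.3 with edgeR 4.0.16 (quasi-likelihood, two-sided), with Benjamini-Hochberg adjustment and a threshold of 0.05. DESeq2 1.42.0, other factors, filters, a replicate block and leaving out each library were alternatives. Exact permutation tests used all 70 assignments. A pseudocount of 0.5 counts was used in the search for patterns like that of Gart and in the replicate correlations. It was also used in the share of all genes set beside the Gart ratios. The deviations, permutation values and Gart ratios of the enzymes had none. RPKM and positions came from GENCODE M21, where 19318 IDs matched and 175 did not. The fits were tested on simulated data. Counting error was small beside the replicate error: the chi-square per degree of freedom within a genotype was 10.5 to 96.8, and no libraries were duplicates.

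Members and lists were chosen with earlier results of these data known. Named are all members, the neighbours of Gart, any gene called in the lists of nucleotide metabolism and proliferation, the gene of smallest relative p in each of those lists, and the 3 genes nearest in pattern to Gart. Ampd3 and Ampd1 were named outside this rule, after their values were seen.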

Additional observations from a re-analysis of the deposited data

Results flagged for a closer look

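Of 40 groups of 4 libraries (10 genes, 2 genotypes and 2 scalings), 3 held a library that stood apart from the other 3 by Dixon's criterion, which chance meets in about 1 of 20 groups. Under spike-in scaling Pfas was low in WT replicate 3, at 818 normalised read counts against 1353 to 1435 in the other WT libraries. In the same library Impdh1 was low, at 365 against 680.1 to 754. WT replicate 3 had the least endogenous RNA per spike-in of the WT libraries, at 0.713. Under relative scaling Pfas was high in WT replicate 2, at 1626 against 1141 to 1203.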

How the results depend on the processing

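Under 14 alternatives per scaling, Gart kept its direction in every fit, and none of the other 9 enzymes was called (smallest adjusted p 0.603). Gart passed the threshold under relative scaling with DESeq2 (log2 fold change 0.80) and with a replicate block (0.81, adjusted p 0.0374 in edgeR). Leaving out 1 library gave Gart 0.69 to 0.87 under relative and 0.73 to 1.09 under spike-in scaling. In the exact permutation test per library under relative scaling it gave 0.69 to 0.89, with p = 0.0571 each time, the smallest that 3 against 4 libraries allow. With spike-in scaling edgeR called 2 genes, and with relative scaling it called 3, of which Ifnar1 lay just past the threshold. The count became 0 under both scalings with at least 10 counts in every library. It became 9 under spike-in and 7 under relative scaling with the replicate block, and 54 under relative scaling with DESeq2. Leaving out 1 library gave counts from 2 to 8 under spike-in scaling (6 without WT replicate 1, 4 without Dp1Tyb replicate 1, 8 without Dp1Tyb replicate 2, 6 without Dp1Tyb replicate 4) and of 1 to 1 under relative scaling, whichever library was left out. The cause of these changes was not tested.

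The replicate numbers were not shown to pair the libraries: deviations of same-numbered libraries correlated at 0.369, 0.524, 0.029 and 0.326, and WT replicate 3 correlated best with Dp1Tyb replicate 4 (0.316). Of 252 values of the other enzymes, 233 kept their direction and 19 changed sign. Upper-quartile factors gave -0.014 for Ppat, -0.0014 for Pfas and -0.037 for Gmps under relative scaling. Leaving out 1 library gave ranges across 0 under relative scaling for Ppat (-0.13 to 0.17), Pfas (-0.038 to 0.19), Paics (-0.096 to 0.17), Impdh2 (-0.015 to 0.23), Gmps (-0.11 to 0.14) and Adss (-0.050 to 0.15), and under spike-in scaling for Ppat (-0.035 to 0.41), Pfas (-0.028 to 0.25), Paics (-0.035 to 0.22) and Gmps (-0.059 to 0.20). The ranges that stayed above 0 were 0.081 to 0.25 for Adsl, 0.032 to 0.23 for Atic and 0.051 to 0.32 for Impdh1 under relative scaling, and 0.13 to 0.38 for Adsl, 0.13 to 0.48 for Atic, 0.052 to 0.42 for Impdh1, 0.032 to 0.30 for Impdh2 and 0.049 to 0.39 for Adss under spike-in scaling. With the length of the longest coding transcript, WT levels were 16.9 RPKM for Gart and 45.1 RPKM for Atic.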
